A study of Mus musculus with 18 samples.

Results

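The step from the undifferentiated ES stage to the SNM stage was followed in control ESD3 mouse embryonic stem cells, that is, the first step of neural differentiation in cells without HPRT knockdown. SNM stands for spherical neural mass, a floating sphere of neural precursors that is made from ES cells on the way to dopaminergic neurons. The 3 control arrays of the SNM stage were set against the 3 control arrays of the ES stage, 6 of the 18 arrays of the series. A probe was tested where its detection p-value was under 0.05 on all 3 arrays of either stage, which 20703 of 45281 probes were, and they carried 14745 gene symbols.

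The study asked what loss of HPRT, an enzyme of purine salvage, does to developing neurons. WT control and HPRT-knockdown cells were compared at the ES, SNM and neuronal stages on Illumina MouseWG-6 v2 arrays. ESD3 (D3) is an established mouse ES cell line, given in the labels as strain 129s2/SvPas. Both kinds of cells had received a viral shRNA vector and puromycin selection, so the control cells carried an shRNA against luciferase and were not untreated cells. ES cells were kept with LIF and bFGF on feeder layers of mouse embryo fibroblasts, so the ES samples may hold feeder RNA. RNA of replicate cultures of the 1 cell line was pooled before hybridisation, and all 3 arrays of a condition measured the same pool. An SD or a test thus speaks for array error, and cultures were not compared.

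As background, ES cells are held in the pluripotent state by a circuit of transcription factors with Pou5f1, Sox2 and Nanog at its centre, which LIF signalling supports. When neural precursors form, this circuit is shut down, SoxB, Zic and Hes factors mark the precursors, proneural factors start neuron production, and glial genes usually follow after neurons. In RNA of a whole culture, fewer cells of a type and less RNA per cell cannot be told apart.

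Between 19755 and 19877 probes were detected on the ES arrays and between 20090 and 21491 on the SNM arrays. Log2 signals correlated across probes, which are not independent, at 0.994 to 0.995 between ES arrays, at 0.992 to 0.997 between SNM arrays and at 0.925 to 0.929 between the stages. Over 3 arrays, the SD of a probe had a median of 0.0943 in ES and 0.11 in SNM samples on the log2 scale. Signals below are normalized log2 values, so a difference of 1 is a 2-fold change, and levels of different probes are not compared. The exception is the summed signal of a list, which adds linear values of different probes, so its brightest probes weigh most. A probe was called when it changed at least 1.5-fold at an adjusted p-value under 0.05 in limma. An exact test of 3 arrays against 3 cannot give a two-sided p-value below 0.1, so the adjusted p-values come from the limma model of all probes. Where a probe was detected on no array of a stage, its change is given as a lower bound of the fold, and a fitted log2 change printed beside such a bound is one against background.

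Hprt1, the gene that was not targeted in these cells, served as a check of the labels. Its log2 signal in control cells was 12.035, 12.071 and 12.004 on the ES arrays and 11.23, 11.22 and 11.13 on the SNM arrays. The SNM arrays lay below all ES arrays, with a log2 change of -0.84 (standard error 0.081, adjusted p = 8.18e-08, limma). In HPRT-knockdown cells its signal was 7.95 ± 0.19 (SD, n = 3 arrays) in ES and 9.44 ± 0.09 in SNM samples, below the control cells at both. The other 2 probes of Hprt1 also fell in control cells (-1.10 and -0.96).

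Of the tested probes, 4916 were higher at the SNM stage (23.7%) and 5251 were lower (25.4%). With each gene represented by its brightest tested probe, 3697 genes were higher (25.1%) and 3619 lower (24.5%), and the median change over all 14745 genes was -0.06. Large fitted changes were more often rises. At least 8-fold changes were found for 380 probes that were higher and 163 that were lower, and at least 32-fold changes for 34 and 9. These counts include probes undetected at 1 stage, whose fitted changes are against background. They were not repeated without such probes, so the excess of large rises may come in part from the filter. All ES arrays lay on 1 side of all SNM arrays for 99.8% of the higher probes, 99.2% of the lower ones and 77.2% of all tested probes. Detection on 3 arrays of a stage and on none of the other held for 1543 probes of the SNM stage and 696 of the ES stage. Such probes entered the test through the stage in which they were high and had to differ, so for each gene list the number of genes on the array is given beside the number tested. The balance of rises and falls depends on this filter and on the scaling between arrays. With detection required on all 6 arrays, 2984 probes were higher and 4059 lower. Rises made up 48.4% of the calls as reported and 68.4% without any scaling between arrays (6740 higher, 3111 lower), where the median change of all tested probes was 0.19 in place of -0.08. The medians of gene lists given below are over the tested members. Over all members on the array, tested or not, they were more than 1.5 times smaller for 23 of 49 lists, and those values are added where the median is given. Without background correction the medians were more than 1.5 times smaller for 26 lists with quantile normalization and for 30 with scaling to the 75th percentile.

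The largest rises were led by glial genes. Olig1, a transcription factor of the oligodendrocyte lineage, had log2 signals of 4.98, 5.20 and 4.45 on the ES arrays and 12.43, 12.46 and 12.43 on the SNM arrays, a log2 change of 7.57 (standard error 0.140, adjusted p = 1.27e-16, limma). Mbp, a structural protein of myelin, went from 4.89, 4.76 and 4.63 to 11.87, 11.85 and 11.79, a change of 7.08. Sox10, a transcription factor of oligodendrocytes and neural crest, was detected on no ES array and rose at least 70.4-fold. Next to these stood the growth factor gene Ptn with a change of 6.81, the fibrillar collagen gene Col3a1 with 6.33, the serpin gene Serpina3n with 6.24, and Cldn11, which builds the tight junctions of myelin, with 6.20. The 12 largest rises closed with Zic1 (5.84), a transcription factor of the dorsal neural tube, Lum (at least 39.2-fold), a proteoglycan of connective tissue, Ednrb (5.73), an endothelin receptor of glia and neural crest, Nnat (5.54), an imprinted gene of the nervous system, and Tcfap2b (5.50), a transcription factor of the neural crest. Only probes whose arrays were separated between the stages were ranked, so the separation of these genes is no result. Among them the SNM arrays spread most for Tcfap2b, at 9.79, 10.07 and 10.73.

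**Figure D1:**
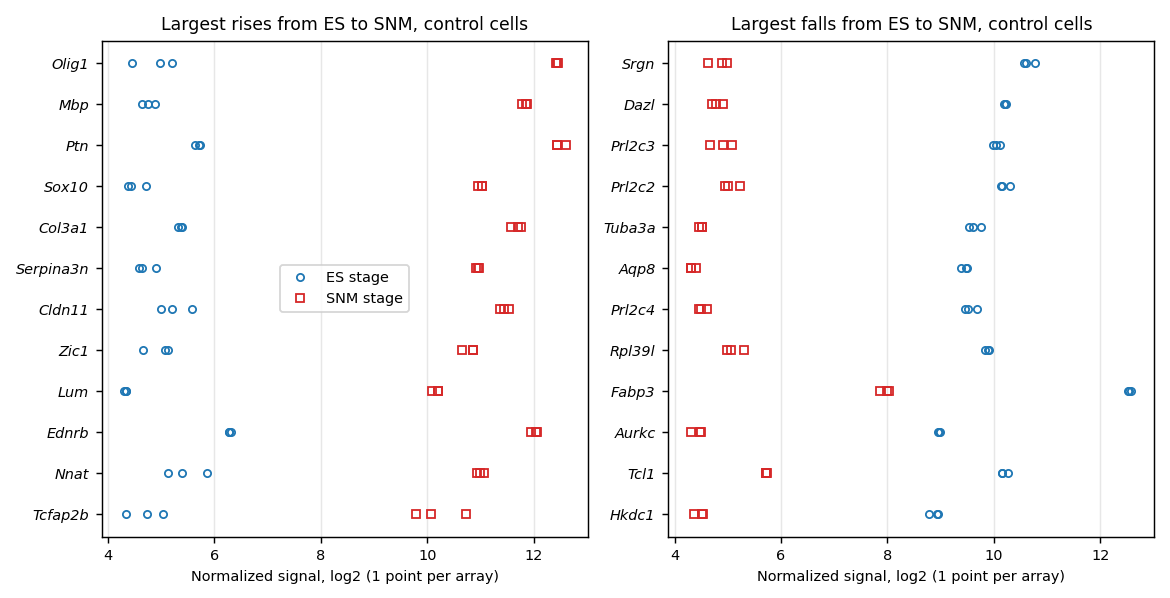
Normalized log2 signal (x axis) of the 12 genes with the largest rises (left) and the 12 with the largest falls (right) from ES to SNM in control cells; each gene is a row with 1 point per array, circles for the 3 ES arrays and squares for the 3 SNM arrays. The stages stay apart in each row because only such probes were ranked. Olig1 lay below 5.21 on all ES arrays and above 12.4 on all SNM arrays.

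Among the 12 largest falls, Srgn, a proteoglycan of secretory granules, was at 10.77, 10.61 and 10.56 on the ES arrays and at 4.98, 4.63 and 4.89 on the SNM arrays, a change of -5.81 (standard error 0.121, adjusted p = 3.58e-16, limma). Dazl, an RNA-binding protein of germ cells, fell by 5.40. The placental hormone genes Prl2c3, Prl2c2 and Prl2c4 fell, by -5.16, -5.13 and at least 27.7-fold, but they are close paralogs whose probes may share RNA. Aqp8, a water channel, fell at least 25.7-fold and Aurkc, a kinase of germ cell divisions, at least 18.4-fold. The remaining falls were Rpl39l (-4.76), a copy of a ribosomal protein gene, Fabp3 (-4.58), a fatty acid carrier, Tcl1 (-4.46), an Akt coactivator of ES cells, Hkdc1 (at least 17.4-fold), a hexokinase, and Tuba3a (at least 29.2-fold), a tubulin. For Tuba3a the probes disagreed, since the brightest changed by only -0.37 and was not called.

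Pluripotency genes fell nearly throughout. Of 52 listed genes, all on the array, 48 were tested, 44 were lower and none was higher, with a median change of -2.10 against -0.06 over all genes tested. Pou5f1 had log2 signals of 12.27, 12.37 and 12.28 on the ES arrays and 9.96, 10.08 and 9.81 on the SNM arrays, a change of -2.35 (standard error 0.079, adjusted p = 1.09e-13, limma). Nanog went from 12.77, 12.64 and 12.63 to 10.57, 10.61 and 10.60, a change of -2.08 (standard error 0.078, adjusted p = 4.21e-13, limma). Both were still detected on all 3 SNM arrays. Sox2, which neural precursors share with ES cells, fell less, from 11.13, 10.96 and 11.11 to 10.22, 10.07 and 10.34.

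The 11 core factors, 10 of them lower, had a median change of -1.89, and their summed linear signal was 35613 to 35903 on the ES arrays and 11505 to 12028 on the SNM arrays. Dppa2, a chromatin factor of early embryos, fell furthest among them (-3.75), and Lin28, an RNA-binding protein, was not called (-0.41). Of 30 genes listed for the naive state, 28 were tested and 26 were lower, with a median of -2.17. Zfp42 (Rex1), a marker of naive cells, went from 12.59, 12.70 and 12.71 to 9.42, 9.26 and 9.19, and the orphan receptor gene Esrrb from 12.68, 12.65 and 12.60 to 9.82, 9.77 and 9.63. Klf4, Klf2 and Klf5, zinc finger factors, fell (-2.12, -2.65 and -3.19). Nodal and Lefty1, a ligand of the TGF-beta family and its inhibitor, fell (-3.33 and -3.55). Spp1 and Otx2, both on this list, changed by -0.48 and -0.07 and were not called, though Spp1 was with scaling to the 75th percentile (-0.74). Otx2 is also named among the midbrain genes below, so it is not particular to the naive state. Of 11 surface and signalling genes 9 were tested, and 8 were lower at a median of -1.71, among them Socs3 (-2.97), a feedback inhibitor of LIF signalling, the LIF receptor gene Lifr (-1.88) and the E-cadherin gene Cdh1 (-1.71), while Stat3 (-0.62) was not called, although it was without SNM array 3 (-0.97), with the array number as a block (-0.62) or with scaling to the 75th percentile (-0.61).

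The promoter of Zfp42 is shown because it was the only one of 30 promoters of pluripotency genes called lower that held the octamer ATGCAAAT, the letters bound by Pou5f1, on either strand. Promoters here are the 300 bases from 250 before to 50 after the start of a gene in RefSeq (build GRCm38.p6), and 8500 of the 14745 tested genes were matched to 10901 of them. The octamer stood in 1.74% of all 32851 promoters of that table, in 1.45% of those of tested genes, in 1.58% of those of genes called lower and in 3.33% of the pluripotency promoters. In the line below, chr8:43306960-43307259 on the minus strand, the capitals mark the octamer, read on the other strand, at position -186 from the start.
Zfp42: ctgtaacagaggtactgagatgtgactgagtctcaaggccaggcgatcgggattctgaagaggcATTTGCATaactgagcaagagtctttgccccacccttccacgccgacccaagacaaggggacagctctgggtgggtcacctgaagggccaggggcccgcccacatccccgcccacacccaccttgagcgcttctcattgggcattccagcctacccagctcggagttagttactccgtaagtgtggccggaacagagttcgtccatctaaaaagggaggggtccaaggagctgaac

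**Figure D2:**
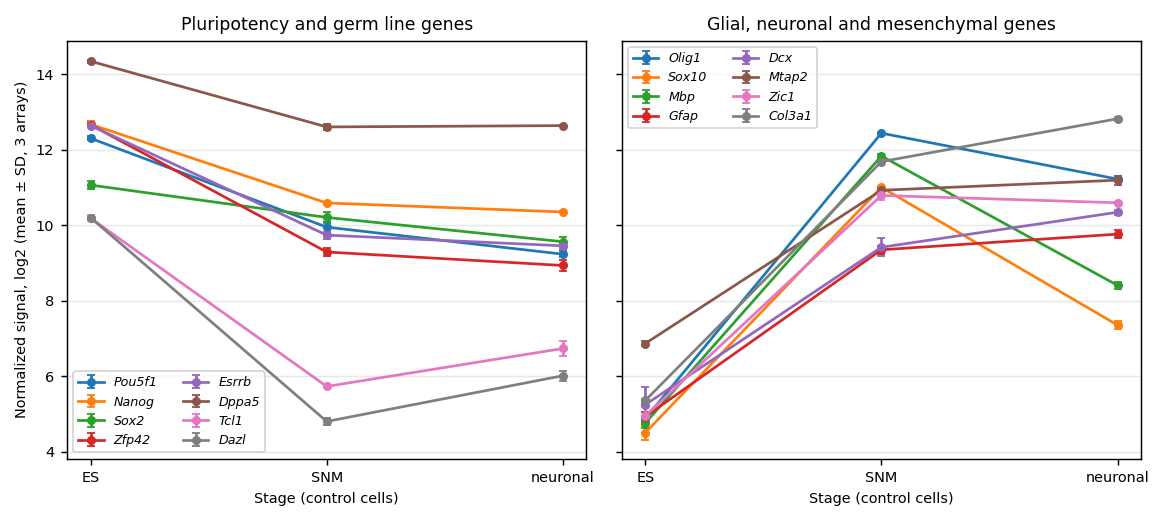
Normalized log2 signal (y axis, mean ± SD of 3 arrays) at the ES, SNM and neuronal stages of control cells for 8 pluripotency and germ line genes (left) and 8 glial, neuronal and mesenchymal genes (right). Pou5f1 went from 12.31 through 9.95 to 9.24, whereas Sox10 and Mbp were highest at the SNM stage and Col3a1 at the neuronal stage (12.82).

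Genes of the germ line also fell for the most part. Of 20 germ cell genes on the array 16 were tested, 14 were lower and 1, Brdt, was higher, with a median change of -2.62, or -2.54 with undetected genes at their bound. Dazl was at 10.22, 10.18 and 10.21 on the ES arrays and at 4.91, 4.78 and 4.71 on the SNM arrays, where only 2 of 3 arrays detected it. Taf7l, a subunit of the general transcription machinery of male germ cells, went from 8.79, 8.92 and 8.88 to 4.48, 4.84 and 4.71. Both genes were well above background at the ES stage and near it at the SNM stage.

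Tex19.1, which restrains retrotransposons in germ cells, fell by 2.76, and so did Piwil2, a partner of piRNAs (-2.62), and Asz1, of the same pathway (-3.45). Falls of at least 4.69-fold for the piRNA helicase gene Mov10l1, at least 4.26-fold for Stk31, at least 3.50-fold for Ddx4 (Vasa), and at least 5.62-fold for Stra8, which starts meiosis, were found. A second probe of Ddx4 changed by -0.52 and was not called. For Brdt, a bromodomain protein of the testis, the brightest probe rose by 1.10, a call lost without background correction (0.43 with quantile normalization) or with an offset of 50 (0.56), and the other fell at least 1.97-fold, so its direction is uncertain. The Rhox homeobox genes Rhox5 and Rhox9 fell, by -2.63 and at least 16.6-fold. Of 6 genes of the cleavage-stage embryo on the array 4 were tested and all 4 were lower, with Zscan4c (-3.36), a telomere factor expressed in bursts in ES cells, as the largest.

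Promoters of 4 germ cell genes are shown because the E-box CACGTG, a palindrome that reads the same on both strands, was found in 6 of the 13 promoters (11 genes) of germ cell genes called lower, 46.2%. It stood in 7.15% of all promoters of the table, 9.57% of those of tested genes, 7.51% of those of genes called higher and 10.7% of those called lower. Brdt, which was called higher, holds it too. The match describes the letters and is not a measured site of binding. E2F, SOX, GATA, TATA and CCAAT motifs were counted too, in several gene sets. The motifs shown in this report were picked from all of these, and no share was tested. In the same 13 promoters the letters TATAAA stood in 30.8%, against 7.62% of those of tested genes. The capitals mark the E-box, at position -49 from the start of Taf7l (chrX:134476441-134476740, minus strand), -55 from that of Stk31 (chr6:49395289-49395588, plus strand), -246 from that of Mov10l1 (chr15:88982744-88983043, plus strand) and -29 from that of Ddx4 (chr13:112652261-112652560, minus strand).
Taf7l: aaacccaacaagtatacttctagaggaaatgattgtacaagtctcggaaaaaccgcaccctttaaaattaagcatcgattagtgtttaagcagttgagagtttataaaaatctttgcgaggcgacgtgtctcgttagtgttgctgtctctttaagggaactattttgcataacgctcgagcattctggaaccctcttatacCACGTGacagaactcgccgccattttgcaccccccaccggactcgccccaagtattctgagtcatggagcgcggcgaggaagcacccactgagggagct
Stk31: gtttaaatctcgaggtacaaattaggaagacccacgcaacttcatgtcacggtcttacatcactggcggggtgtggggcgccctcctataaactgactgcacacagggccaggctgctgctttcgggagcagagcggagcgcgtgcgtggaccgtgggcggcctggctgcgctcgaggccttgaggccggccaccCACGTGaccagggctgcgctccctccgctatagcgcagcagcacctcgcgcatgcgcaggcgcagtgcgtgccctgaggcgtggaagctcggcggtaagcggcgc
Mov10l1: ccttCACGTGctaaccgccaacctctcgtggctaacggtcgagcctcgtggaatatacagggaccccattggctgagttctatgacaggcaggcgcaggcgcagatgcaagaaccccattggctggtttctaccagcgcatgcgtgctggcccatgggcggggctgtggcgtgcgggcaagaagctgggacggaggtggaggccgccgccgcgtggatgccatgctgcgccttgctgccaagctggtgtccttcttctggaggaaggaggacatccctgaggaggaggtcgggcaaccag
Ddx4: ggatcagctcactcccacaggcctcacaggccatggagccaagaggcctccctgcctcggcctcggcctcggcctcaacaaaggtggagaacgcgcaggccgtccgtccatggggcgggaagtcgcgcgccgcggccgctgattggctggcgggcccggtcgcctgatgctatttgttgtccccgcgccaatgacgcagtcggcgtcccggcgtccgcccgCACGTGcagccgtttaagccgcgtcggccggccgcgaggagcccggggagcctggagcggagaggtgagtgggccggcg

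Most tested genes of endoderm, trophoblast and surface ectoderm fell as well, whereas those of fibroblasts and skeletal muscle, given below, mostly rose. Of 33 endoderm genes 25 were tested, 20 were lower and 4 higher, with a median change of -1.21 (-0.78 over all on the array). Gata6, the driver of primitive endoderm, went from 11.03, 10.96 and 10.92 to 6.80, 7.02 and 6.90 (-4.06, standard error 0.101, adjusted p = 2.59e-15, limma). Sox17, an endoderm factor, went from 9.67, 9.63 and 9.63 to 5.99, 5.97 and 5.96, and the laminin gene Lama1 fell by 3.99. Their summed signal over the list was 20352 to 21427 on the ES arrays and 7329 to 7512 on the SNM arrays. The defining markers Afp and Gata4 were not tested and were detected on none of the 6 arrays.

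For trophoblast and placenta, 12 of 23 genes were tested, 9 were lower and 3 higher at a median of -1.85, but over all 23 on the array the median was only -0.09, so the fall is that of the members that were detected, with Phlda2 (-4.16), an imprinted inhibitor of placental growth, among them. Of 26 genes of surface ectoderm 19 were tested, 14 were lower and 2 higher, with a median of -1.79, or -1.71 with undetected genes at their bound (-1.05 over all on the array). The keratin genes Krt8 and Krt18 fell (-2.67 and -1.85), as did Grhl3 and Grhl2, factors of epithelial barriers (-2.59 and -1.93). These keratins also stand on the endoderm and trophoblast lists. Of 14 endothelial genes 12 were tested, of which 7 fell, such as Cdh5 (-1.36) and Pecam1 (-2.39), and 5 rose, led by Emcn (at least 14.2-fold).

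The epiblast and primitive streak are the stages that lie between ES cells and the germ layers. All 7 epiblast genes were tested and 6 were higher, at a median of 1.09. Fgf5, the usual marker of primed epiblast, went from 5.51, 5.03 and 4.69 to 6.98, 7.06 and 7.01, and Dnmt3b, a DNA methyltransferase, changed by 0.44 and was not called. Of 20 streak and mesoderm genes 11 were tested, with 5 higher and 3 lower. T (Brachyury) rose by 2.89 and Lhx1, a homeobox gene of the organizer and of neurons, by 3.63, while Evx1 fell by 1.81.

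Neural progenitor genes rose for the most part, although commonly used markers such as Nes and Pax6 were not called. Of 38 progenitor genes on the array 31 were tested, 23 were higher and 3 lower, with a median change of 1.75, or 1.61 at the bound (1.09 over all on the array). Zic1 went from 5.06, 5.12 and 4.66 to 10.65, 10.86 and 10.87. Sox11, a SoxC factor of young neurons and precursors, went from 8.86, 8.76 and 8.84 to 12.88, 12.97 and 12.96 (4.11, standard error 0.058, adjusted p = 1.83e-17, limma). Fabp7, a lipid carrier of radial glia, went from 5.55, 5.42 and 5.40 to 10.31, 10.07 and 10.39. For all 3 genes the stages lay many SDs apart.

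Sox9, which primes gliogenesis, rose by 3.87, the Iroquois genes Irx3 and Irx5 by 3.53 and 4.04, and the proteoglycan gene Ncan at least 35.3-fold. In contrast, Nes (nestin) changed by 0.52, Pax6 by -0.40, Notch1 by 0.43 and Cdh2 (N-cadherin) by -0.07, and none was called. Nes was called without ES array 2 (0.60), without SNM array 3 (0.60) or without scaling between arrays (0.93). Notch1 was called without that scaling (0.79). The tested probe of Cdh2 was dim, at 5.032 in ES and 4.965 in SNM samples, so it says little about that gene. Sox1 and Msi1 were not detected on all 3 arrays of either stage and were not tested. Of the 5 defining progenitor markers, 3 were thus tested and 1, Fabp7, rose. Gbx2, Sox2 and Zic2 were the members that fell, and the call of Zic2 was lost without ES array 1 (-0.42), SNM array 1 (-0.43) or SNM array 2 (-0.54), and under each of the other settings for background, scaling and offset (-0.41 to -0.17).

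Of 21 proneural factors 15 were tested, 12 rose and none fell, at a median of 2.61, or 2.23 at the bound. Ebf3, of early neuronal differentiation, went from 5.95, 6.20 and 6.23 to 10.69, 10.70 and 10.75, and Insm1, of newborn neurons, from 5.81, 5.55 and 5.76 to 9.64, 9.57 and 9.47. Neurog2 rose at least 3.25-fold, and Neurod1 (0.50) and Neurog1 (0.02) were not called, though Neurod1 was without scaling between arrays (0.95). Among 15 Notch ligands and modulators 13 were tested, 7 rose and none fell, with Dll1 (1.88), Dll3 (2.18), Jag1 (1.39), Dner (3.21) and Dlk1 (4.93) among the rises. Of 12 Hes, Hey and Id repressors 11 were tested and 8 rose, at a median of 1.31. Hes5, the usual Notch target of precursors, rose at least 15.8-fold and Hey1 by 3.15, whereas Hes1 changed by 0.17 and was not called.

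Genes of neurons were higher at the SNM stage. Of 36 genes of the neuronal cytoskeleton and of neurite growth 33 were tested, 30 were higher and 1, the peripheral neuron filament gene Prph, was lower (-1.04, a call lost without background correction), with a median change of 2.27. Dcx (doublecortin), a microtubule protein of migrating neurons, was at 5.70, 4.77 and 5.27 on the ES arrays and at 9.45, 9.17 and 9.64 on the SNM arrays (4.17, standard error 0.164, adjusted p = 7.96e-13, limma). Mtap2, a dendritic microtubule protein, went from 6.89, 6.91 and 6.80 to 10.90, 10.91 and 10.97. The growth cone gene Gap43 went from 7.92, 7.92 and 8.01 to 11.51, 11.48 and 11.72. The arrays of the stages were far apart for each of them.

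Stmn2, a microtubule regulator, rose by only 0.77 from a high ES signal of 10.26, 10.17 and 10.18. Tubb3, the class III tubulin, was at 4.65, 4.83 and 4.75 and at 5.19, 4.94 and 5.00, near background at both stages, and was not called. Of 16 neuronal RNA-binding genes 12 were tested and 7 rose, among them Elavl3 (1.85) and Elavl4 (3.17) of the Hu family. The splicing regulator gene Ptbp1 (-0.03) and its neural paralog Ptbp2 (-0.05) were not called, the latter with a dim probe, at 5.27 in ES and 5.23 in SNM samples.

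For the synapse, 25 of 34 vesicle and SNARE genes were tested, 18 rose and 2 fell, at a median of 1.18 (0.77 over all on the array). Syt1, the calcium sensor of transmitter release, was undetected at the ES stage and rose at least 18.2-fold. Slc17a6 (VGLUT2), which loads glutamate, went from 4.90, 4.50 and 4.40 to 8.97, 9.20 and 9.27, and Slc32a1, which loads GABA and glycine, from 4.90, 5.31 and 5.24 to 8.08, 8.10 and 7.96. Sncg (-1.34) and Syngr1, a vesicle protein (-1.16), fell. Of 37 receptors and channels on the array only 20 were tested, and 15 of them rose, at a median of 1.01, or 0.82 at the bound (0.32 over all on the array). The AMPA receptor genes Gria1, Gria2, Gria3 and Gria4 were among these, Gria2 with a change of 1.92, while Gria1 and Gria4 were undetected at the ES stage and lost the call with scaling to the 75th percentile.

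Promoters of 2 neuronal genes are shown for the RE1 half-site TTCAGCACC, letters of the element that the silencer REST binds. It was found in 2 of 51 promoters (3.92%) of neuron and synapse genes called higher, on either strand, against 0.371% of all promoters of the table and 0.34% of those of genes called higher. With 2 matches this is a description of those promoters only. Both genes rose, Scg2, a granin of secretory vesicles, at least 4.56-fold and Nsg2, an endosomal protein of neurons, by 3.14. The capitals mark the half-site, at position -7 from the start of Scg2 (chr1:79439977-79440276, minus strand) and -201 from that of Nsg2 (chr11:32000450-32000749, plus strand).
Scg2: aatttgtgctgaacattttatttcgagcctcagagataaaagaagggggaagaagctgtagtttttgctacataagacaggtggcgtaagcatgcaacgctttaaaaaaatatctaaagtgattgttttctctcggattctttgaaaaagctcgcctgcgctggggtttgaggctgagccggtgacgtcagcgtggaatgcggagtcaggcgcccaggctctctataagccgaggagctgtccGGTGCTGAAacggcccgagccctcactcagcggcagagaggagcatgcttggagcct
Nsg2: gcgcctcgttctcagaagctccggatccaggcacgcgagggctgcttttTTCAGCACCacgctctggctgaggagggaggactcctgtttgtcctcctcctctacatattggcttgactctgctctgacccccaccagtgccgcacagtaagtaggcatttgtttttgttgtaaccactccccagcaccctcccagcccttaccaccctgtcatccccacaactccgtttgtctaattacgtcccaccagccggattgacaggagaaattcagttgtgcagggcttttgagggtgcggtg

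Glial genes rose together with those of neurons. Of 15 oligodendrocyte lineage genes 12 were tested, 8 were higher and none lower, at a median of 1.76, or 1.59 at the bound (0.92 over all on the array and 0.53 over members detected on all 6 arrays). Olig1 led the 12 largest rises, whereas Olig2 was at 4.76, 4.79 and 4.43 on the ES arrays and at 5.25, 5.23 and 5.19 on the SNM arrays. It was detected on no ES array and was at least 1.28-fold higher, and its fitted change of 0.57 was not called, though it was without ES array 1 (0.62), without ES array 2 (0.63) or without scaling between arrays (0.67). Gpr17, a receptor of maturing oligodendrocyte precursors, rose at least 28.6-fold, whereas Cspg4 (0.56) and Pdgfra (0.51), markers of those precursors, were not called, though Cspg4 was without ES array 3 (0.67) or SNM array 1 (0.60), and both were without scaling between arrays (0.83 and 0.87). Sox10 was at 4.71, 4.43 and 4.37 and at 11.03, 10.95 and 11.04.

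Of 20 myelin genes 17 were tested, 13 were higher and 1 lower, with a median of 2.45. Mag, an adhesion protein of myelin, went from 4.53, 5.12 and 4.59 to 9.14, 9.18 and 9.06. Mog, which appears late in myelination, was detected on no ES array and was at least 1.11-fold higher. Its fitted change was not called, though it was without ES array 1 (0.62), SNM array 2 (0.61) or SNM array 3 (0.59) or without scaling between arrays (0.61). Tspan2 fell by 1.38. The summed signal of the myelin genes was 1238 to 1306 on the ES arrays and 15573 to 16314 on the SNM arrays. At the neuronal stage of the same cells, Mbp stood at 8.41, Mag at 5.91, Gpr17 at 5.92 and Sox10 at 7.36, below the SNM level in each case.

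Of 37 genes of astrocytes and radial glia 34 were tested, 31 were higher and 1, Apoe, was lower (-0.77, not called without scaling between arrays at -0.53), with a median of 2.65, or 2.29 at the bound. Gfap, the filament of astrocytes, went from 4.79, 5.06 and 4.92 to 9.41, 9.41 and 9.23 (4.42, standard error 0.096, adjusted p = 5.43e-16, limma). Slc1a3 (GLAST), a glutamate transporter of radial glia, went from 7.55, 7.60 and 7.68 to 11.997, 12.137 and 12.226. Aqp4, the water channel of astrocyte endfeet, rose at least 9.82-fold, with SNM arrays at 7.60, 8.08 and 8.80. For Nfib, a factor of gliogenesis, the brightest probe rose by 1.85, while 2 others fell (-1.17 and -0.92) and a further one was not called (-0.53).

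**Figure D3:**
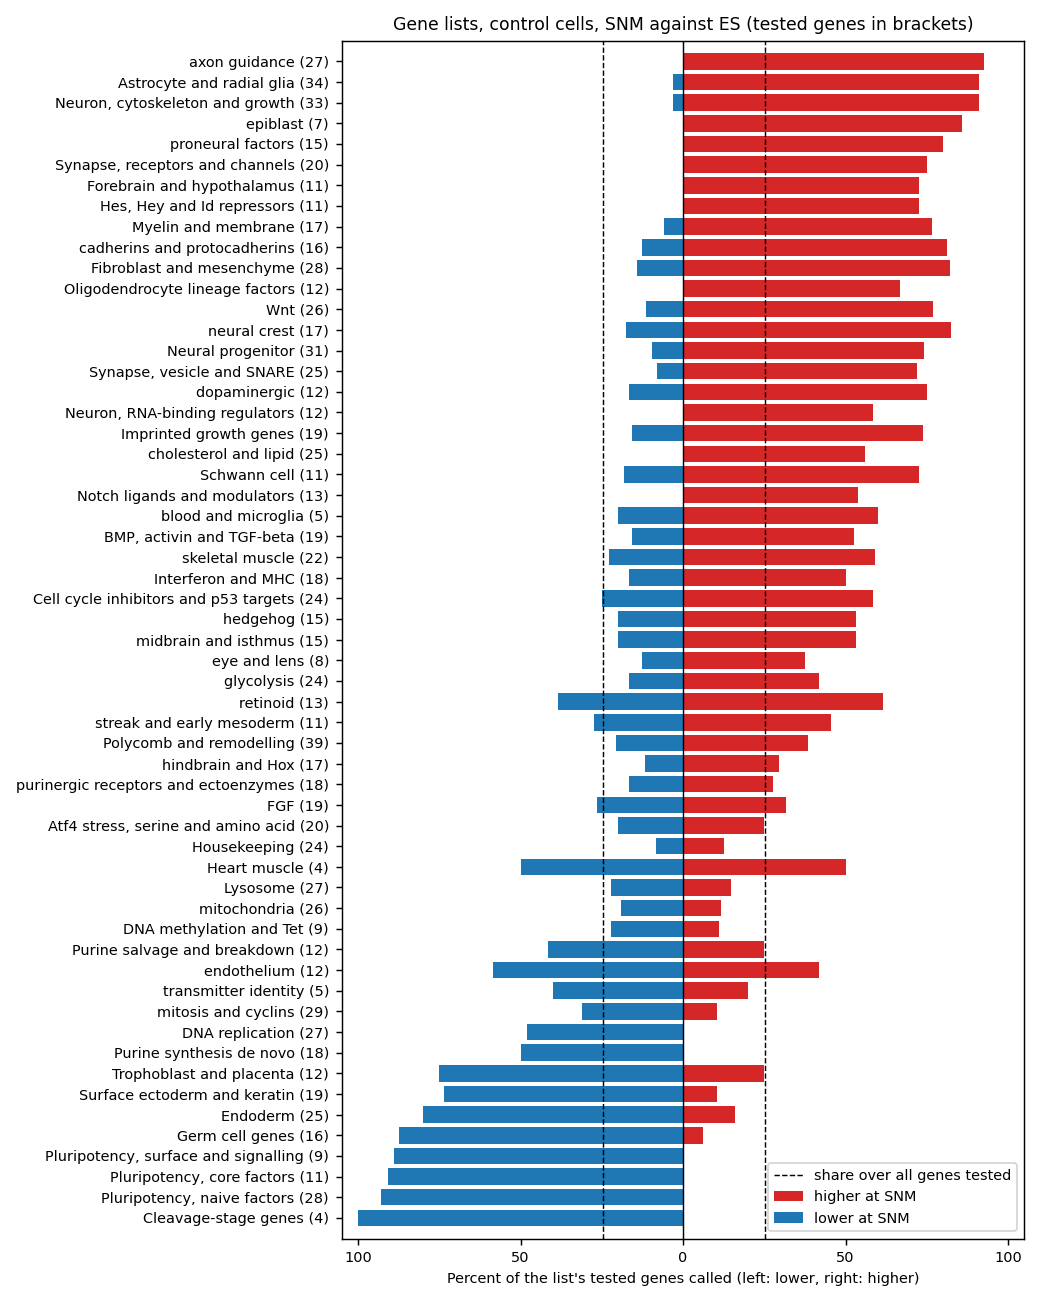
Percent of the tested genes of each list called higher (bars to the right) or lower (bars to the left) at the SNM stage, with the number tested in brackets; dashed lines mark the shares over all genes tested, 25.1% higher and 24.5% lower. Axon guidance, astrocyte and neuronal cytoskeleton genes stand at the top, and pluripotency, germ cell and endoderm genes at the bottom.

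Markers of neural crest and connective tissue were higher at the SNM stage too. Of 23 neural crest genes 17 were tested, 14 rose and 3 fell (Snai1, Ngfr and Prph), at a median of 1.22. Snai2 and Twist1, factors of crest and mesenchyme, rose by 2.75 and 2.48, and Isl1, of sensory and motor neurons, by 3.50. Of 14 Schwann cell genes 11 were tested, 8 rose and 2 fell, but several of them, such as Fabp7, are also glial genes.

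Of 31 fibroblast and mesenchyme genes 28 were tested, 23 rose and 4 fell, with a median of 2.42, or 2.33 at the bound. The 5 defining fibroblast markers all rose. Col3a1 went from 5.39, 5.32 and 5.37 to 11.71, 11.58 and 11.77 and Lum from 4.33, 4.30 and 4.34 to 10.19, 10.21 and 10.08. Col1a1, the chain of type I collagen, rose at least 5.40-fold, Col1a2 by 1.67 (0.54, not called, with scaling to the 75th percentile) and Thy1 by 2.26. Of these markers, Col1a1 and Lum were detected on no ES array, Col1a2 on 1, and Col3a1 and Thy1 on all 3. The ES cells were kept on feeders, and the share of feeder RNA in the ES samples was not tested. Sparc (-1.17) and Acta2 (-1.10), a matrix protein and smooth muscle actin, fell from mean ES levels of 11.996 and 10.243. The summed signal of the list was 7924 to 8332 on the ES arrays and 20736 to 21462 on the SNM arrays. Its part in the rises of neural and glial genes was not tested.

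Of 33 skeletal muscle genes 22 were tested, 13 rose and 5 fell, at a median of 0.94, or 0.55 at the bound (0.105 over all on the array). Myl1, a myosin light chain, went from 5.38, 5.55 and 5.14 to 10.36, 10.30 and 10.32 and reached 14.58 at the neuronal stage. The muscle regulator gene Myog changed by -0.13 and was not called, and Myod1 was detected on none of the 6 arrays. The summed signal of the muscle list was 2782 to 2993 on the ES arrays and 4887 to 4983 on the SNM arrays.

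Genes of more than 1 brain region rose. Of 28 forebrain genes 11 were tested, 8 rose and none fell, at a median of 1.94, or 1.58 at the bound. Over all 28 on the array the median was only 0.21, and over the tested ones it was 0.85 with quantile normalization and 0.66 with scaling to the 75th percentile, both without background correction. Of 23 midbrain and isthmus genes 15 were tested, 8 rose and 3 fell, at a median of 0.70 (0.103 over all on the array). En1, an engrailed factor of midbrain and isthmus, went from 6.37, 6.41 and 6.35 to 10.05, 10.04 and 10.08, and En2 from 7.27, 7.48 and 7.39 to 10.30, 10.35 and 10.36. Both engrailed genes were clearly separated, whereas Otx2 (-0.07) and Pax8 (-0.35) were not called, and Fgf17 and Gbx2 fell (-2.31 and -1.55). Of 33 hindbrain and Hox genes 17 were tested, 5 rose and 2 fell, at a median of 0.26, or 0.07 at the bound, and that median was -0.06 with scaling to the 75th percentile and -0.22 among genes detected on all 6 arrays, and 0.03 over all on the array.

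For the dopaminergic lineage, 12 of 20 genes were tested, 9 rose and 2 fell, with a median of 1.27, or 0.93 at the bound (0.50 over all on the array). Besides the engrailed genes, Corin, a floor plate protease, rose at least 4.55-fold and Foxa1, of the floor plate and of endoderm, at least 3.44-fold. Nr4a2 (Nurr1), a factor of dopaminergic neurons, was at 4.47, 4.44 and 4.46 on the ES arrays and at 5.44, 5.88 and 6.60 on the SNM arrays, a rise of at least 2.15-fold with a wide spread at the SNM stage, which was not called with scaling to the 75th percentile (0.42). Lmx1a rose at least 1.69-fold, a call lost with quantile normalization (0.48) or scaling to the 75th percentile (0.25) in place of background correction, or with an offset of 50 (0.57). Foxa2 (-1.34) and Ddc, the decarboxylase of dopamine synthesis (-0.59), fell. The call of Foxa2 was lost with quantile normalization (-0.56), and that of Ddc without ES array 1 (-0.55) or SNM array 3 (-0.54) and under each of the other settings for background, scaling and offset (-0.55 to -0.28). Th, the rate-limiting enzyme of dopamine synthesis, the dopamine transporter gene Slc6a3 and Pitx3 were not detected on all 3 arrays of either stage and were not tested.

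Among the hedgehog, Wnt, BMP and FGF lists, the Wnt list had the highest median. Of 36 Wnt genes 26 were tested, 20 rose and 3 fell, at a median of 1.41, or 1.23 at the bound (0.825 over all on the array). Among receptors, Fzd1 rose at least 15.4-fold and Fzd2 at least 8.68-fold, while Fzd5 fell by 2.48. Among ligands, Wnt5a went from 4.94, 5.40 and 4.77 to 7.36, 7.51 and 7.86, and Wnt7b rose by 2.54. Axin2, a feedback target of the pathway, rose by 2.27, the secreted inhibitor gene Sfrp2 by 3.44, and Lef1, a nuclear effector, changed by -0.15 and was not called.

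Of 19 hedgehog genes 15 were tested, 8 rose and 3 fell, at a median of 0.75 (0.09 over all on the array). The ligand gene Shh was at 4.64, 4.30 and 4.79 and at 5.77, 5.72 and 5.46, a rise of at least 1.72-fold at a low level that was no longer called with an offset of 50 (0.54), quantile normalization (0.43) or scaling to the 75th percentile (0.21). The transducer gene Smo rose by 1.66 and the effector gene Gli3 by 1.92, and Ptch1, both receptor and target, changed by -0.07 and was not called. For BMP and TGF-beta, 19 of 24 genes were tested, 10 rose and 3 fell, with the ligand gene Tgfb2 (3.47) and the receptor gene Bmpr1b (1.95) higher and the BMP antagonist gene Nog (-1.24, not called with quantile normalization at -0.54) lower. Of 26 FGF genes 19 were tested, 6 rose and 5 fell, at a median of -0.06 that was 0.37 without scaling between arrays and 0.07 without SNM array 3. Fgf4, a ligand of ES cells, fell at least 4.73-fold and so did the feedback inhibitor gene Spry4 (-2.24), whereas the intracellular family member Fgf13 rose by 2.34. Of 16 retinoid genes 13 were tested, 8 rose and 5 fell, with the binding protein gene Crabp1 (3.20) higher and the receptor gene Rarg (-2.72) lower.

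Of 20 cadherins and protocadherins 16 were tested, 13 rose and 2 fell, at a median of 1.62, or 1.25 at the bound. Most of the rises were of genes undetected at the ES stage, and over the members detected on all 6 arrays the median was -0.26. Cdh1 went from 10.89, 10.78 and 10.91 to 9.13, 9.21 and 9.13 and Cdh3 (P-cadherin) fell by 2.73, while Pcdh17 rose at least 10.9-fold and Cdh13 by 2.66. Of 34 axon guidance genes 27 were tested, 25 rose and none fell, at a median of 1.89. The receptors Nrp1 (3.82), Robo1 (2.19) and Epha7 (3.52) and the ligands Sema5a (3.82), Slit2 (3.03) and Efna5 (2.75) were among them. Epha4 (-0.50) and Slit3, undetected at the ES stage and at least 1.07-fold higher, were not called.

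Genes of DNA replication were lower by a small amount. All 28 were on the array and 27 were tested, with 13 lower and none higher, at a median of -0.56. Cdc6, which loads the replicative helicase, went from 10.21, 10.36 and 10.25 to 8.87, 9.06 and 8.94, and the helicase genes Mcm2, Mcm5 and Mcm6 fell (-0.70, -0.75 and -0.66), Mcm2 not called without scaling between arrays (-0.57). Of 36 genes of mitosis and cyclins 29 were tested, 9 fell and 3 rose, at a median of -0.45. Mki67, the marker of cycling cells, was at 9.16, 9.11 and 9.16 and at 9.20, 9.07 and 9.13 and was not called. Ccne1, the G1/S cyclin E, fell by 1.39 and Ccnd1, the D-type cyclin, rose by 1.27. Ccnd2 rose by 3.90 (standard error 0.459, adjusted p = 9.04e-07, limma), with SNM arrays at 10.86, 11.43 and 12.41, a spread far above the median SD. Of 28 cell cycle inhibitors and p53 targets 24 were tested, 14 rose and 6 fell, at a median of 0.64. The inhibitors Cdkn1c (2.01), Cdkn2a (1.60), Cdkn1a (1.01) and Cdkn1b (0.61, not called without ES array 3 at 0.53, without SNM array 3 at 0.47, without background correction or with an offset of 50) rose, and Trp53 itself fell by 1.06.

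Among chromatin genes, Dnmt3l, the cofactor of de novo DNA methylation in germ cells, fell by 3.05. Of 44 Polycomb and remodelling genes 39 were tested, 15 rose and 8 fell, at a median of 0.33 (0.20 over all on the array). Of the PRC2 subunits, Suz12 and Eed fell (-1.002 and -0.95), and Ezh2, the methyltransferase, changed by 0.56 and was not called (0.86 without SNM array 1 and 0.75 without scaling between arrays, both called). Of 27 imprinted genes 19 were tested, 14 rose and 3 fell, at a median of 1.504 (0.99 over all on the array). H19, a noncoding RNA, went from 10.49, 10.49 and 10.55 to 13.83, 13.79 and 13.70, and its neighbour Igf2, a growth factor, from 8.74, 8.81 and 8.83 to 11.91, 11.97 and 11.91. Both neighbours thus rose together, by 3.26 and 3.13. Dlk1 rose by 4.93, Ndn, of the Prader-Willi region, by 3.35 and Nnat by 5.54.

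Purine metabolism is the pathway to which HPRT belongs. All 18 genes of de novo purine synthesis on the array were tested, 9 were lower and none higher, at a median of -0.55. Ppat, the first enzyme of the pathway, went from 9.95, 10.14 and 10.11 to 8.997, 8.923 and 8.917, the adjusted p being 4.72e-10 in limma. Gart, Paics and Atic, which carry out later steps, fell (-0.76, -0.63 and -0.69), but none of the 3 was called without scaling between arrays (-0.57, -0.42 and -0.49), nor was Paics with quantile normalization (-0.58). Of 15 genes of salvage and breakdown 12 were tested, 5 fell and 3 rose, at a median of -0.22 that was 0.05 without scaling between arrays and -0.11 over all on the array. Besides Hprt1 these were Ada (-0.93), adenosine deaminase, on the side of the falls, whose call was lost under each of the other settings for background, scaling and offset (-0.56 to -0.40), and Adk (0.81), adenosine kinase, on the side of the rises. Aprt, the salvage enzyme of adenine, was at 12.01, 11.98 and 12.01 and at 11.96, 11.92 and 11.97 and was not called.

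In energy and lipid metabolism, 24 of 26 glycolysis genes were tested, 10 rose and 4 fell, with Egln3 (2.09), an oxygen sensor induced by hypoxia, and Eno2 (1.70), the neuronal enolase, as the largest rises. Of 28 mitochondrial genes 26 were tested, 3 rose and 5 fell, at a median of -0.13. All 25 genes of cholesterol and lipid synthesis on the array were tested, and 14 rose and none fell, at a median of 0.71. The desaturase genes Scd1 and Scd2 rose by 2.83 and 2.32. Of 25 reference genes 24 were tested, with 3 higher and 2 lower and a median of 0.04 that was -0.249 with scaling to the 75th percentile, and Gapdh was at 13.50, 13.58 and 13.60 on the ES arrays and at 13.64, 13.59 and 13.52 on the SNM arrays.

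Genes of the Y chromosome were looked at after the values had been seen. Of 17 probes annotated to it 9 were tested, 8 were lower and none higher, which makes 6 of 7 genes lower. Over the 9885 tested genes with a chromosome, the share of genes called lower ranged from 19.4% to 27.4% on the other chromosomes and was 85.7% on the Y. Eif2s3y, a translation factor subunit, went from 10.67, 10.64 and 10.58 to 6.90, 6.99 and 6.70 (-3.76, standard error 0.118, adjusted p = 4.45e-14, limma) and stood at 4.40 at the neuronal stage. In knockdown cells at the SNM stage it was 8.99. The brightest probe of Ddx3y, an RNA helicase gene, went from 10.72 ± 0.23 to 8.97 ± 0.46 (SD, n = 3 arrays).

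Of the X-linked partners of these genes, Eif2s3x changed by 0.07, Ddx3x by -0.55 and Jarid1c by -0.15, and none was called, though Ddx3x was without SNM array 3 (-0.85) or with scaling to the 75th percentile (-0.77). Both tested probes of Utx fell (-0.69 and -0.71), the former not called without ES array 1 (-0.65), ES array 3 (-0.66), SNM array 1 (-0.46) or SNM array 2 (-0.60) or without scaling between arrays (-0.49), as did those of Usp9x (-0.67 and -1.30), and for Zfx 1 probe fell by 1.11 and the other changed by 0.07. None of the 4 probes of Xist, the RNA of the inactive X chromosome, was detected on any of the 6 arrays. Transcripts of the mitochondrial genome, also looked at after their values were seen, were uneven. The probes of mt-Nd6 and mt-Nd4l fell (-2.84 and -2.75), as did those of mt-Nd4 and mt-Co2 (-1.03 and -0.80), while mt-Cytb (-0.10), mt-Nd1 (-0.31), mt-Nd5 (-0.08) and mt-Atp6 (-0.44) were not called, though mt-Nd1 (-0.65) and mt-Atp6 (-0.77) were with scaling to the 75th percentile.

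**Figure D4:**
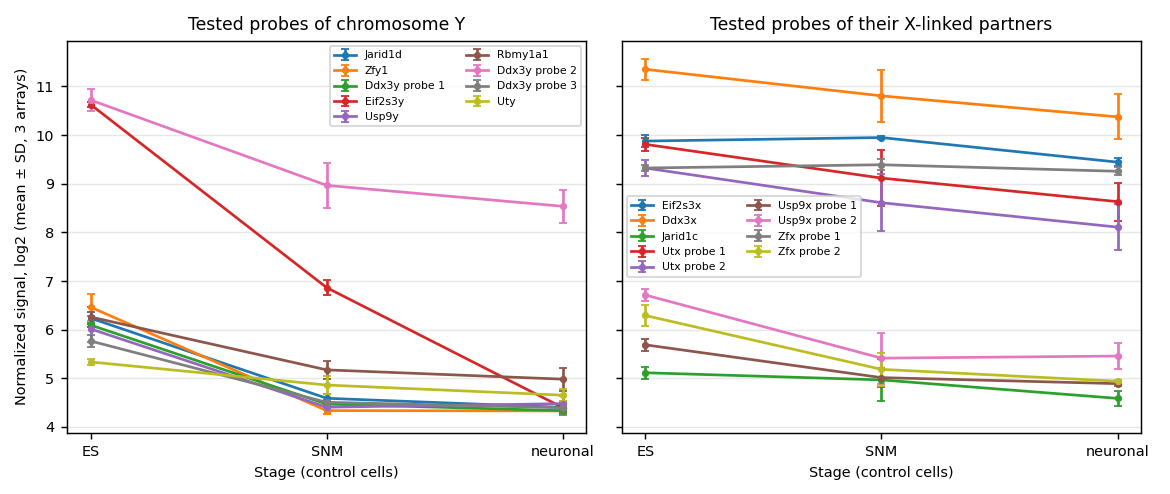
Normalized log2 signal (y axis, mean ± SD of 3 arrays) at the ES, SNM and neuronal stages of control cells for each tested probe of chromosome Y (left) and of the X-linked partner genes (right). Eif2s3y went from 10.63 through 6.86 to 4.40, while Eif2s3x stayed between 9.44 and 9.95.

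The change in control cells was compared with that in HPRT-knockdown cells over the same step. In knockdown cells 5664 probes were higher and 6630 lower. Of the probes higher in control cells 84.1% were called higher in knockdown cells too, which was 73% of those higher in the latter, and of the probes lower in control cells 83.7% were called lower, 66.3% of those in the latter. Calls in opposite directions were rare, at 6 and 33 probes. The difference between the changes was tested on 22125 probes, and the control change lay above the knockdown change for 2122 (9.59%) and below it for 2593 (11.7%).

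The differences furthest below were of genes that rose in knockdown cells and little or less in control cells. Several of these genes were undetected at the ES stage, so their fitted differences between the changes are taken against background and their order is not firm. Nkx2-1, a transcription factor of ventral forebrain and lung, was detected on no ES array of either kind of cells and on 1 control SNM array, and rose at least 55.1-fold in knockdown cells. Its SNM level was 4.71 ± 0.07 (SD, n = 3 arrays) in control and 10.72 ± 0.03 in knockdown cells. Shh, also undetected in both kinds of ES cells, rose at least 1.72-fold in control and at least 58.3-fold in knockdown cells, and Angptl1, a secreted protein, at least 1.52-fold and at least 35.6-fold. The small control rise of Angptl1 was, like that of Shh, not called without background correction or with an offset of 50. Ptgs1, a cyclooxygenase, changed by 0.07 in control cells and rose at least 46.3-fold in knockdown cells, where no ES array detected it. Car3, a carbonic anhydrase of muscle and fat, was detected on all of these arrays and changed by 2.67 and 7.26, a difference of -4.59 (standard error 0.167, adjusted p = 8.71e-12, limma).

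The differences furthest above were smaller. En2 changed by 2.96 in control and by 0.30 in knockdown cells, a difference of 2.66 (standard error 0.094, adjusted p = 6.9e-12, limma). Tex19.1 fell in both (-2.76 and -5.35). For Mmp3, a matrix protease, and Tcfap2b the probe with the largest difference was not the brightest one and was undetected in both kinds of ES cells. That of Mmp3 stood at 8.19 in control and 5.76 in knockdown cells at the SNM stage, the latter a rise of at least 1.78-fold. The brightest probe of Mmp3, detected on 1 control ES array and no knockdown one, stood at 9.24 and 6.97. That of Tcfap2b rose at least 16.1-fold and at least 3.18-fold. Glial genes differed in both directions. Gfap, undetected in knockdown ES cells, rose less in control cells, with a fitted difference of -1.91 (adjusted p = 2.64e-08, limma). The control change also lay below the knockdown change for Slc1a3 (-0.62) and Apoe (-2.58). In contrast, Mbp rose more in control cells, by 1.77 on the log2 scale (adjusted p = 1.82e-06, limma). Sox10, undetected in both kinds of ES cells, stood at 11.01 in control and 9.26 in knockdown cells at the SNM stage, with a fitted difference of 1.65 (adjusted p = 3.15e-08, limma), whereas for Olig1 the difference was not called (adjusted p = 0.295).

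**Figure D5:**
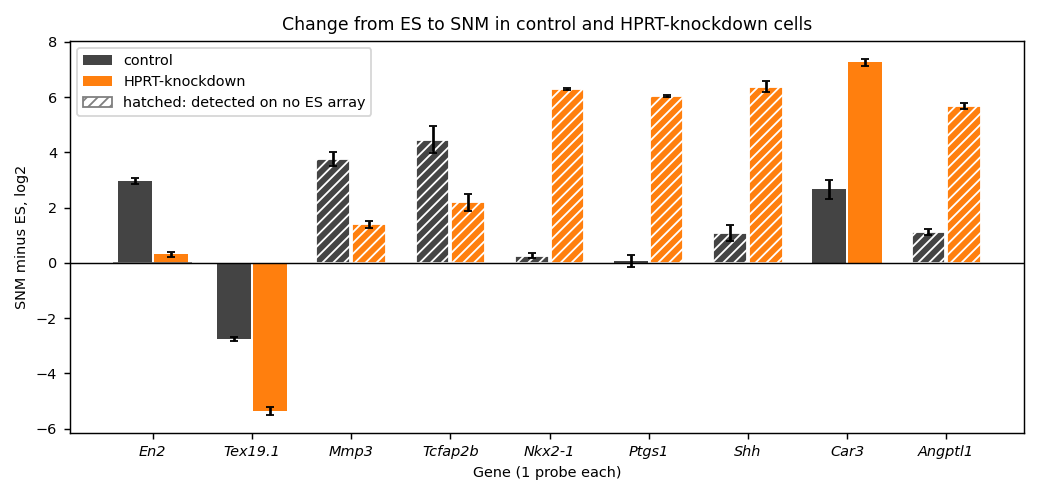
Change from ES to SNM (y axis, SNM minus ES on the log2 scale) of 9 genes with large differences between control cells (grey bars) and HPRT-knockdown cells (orange bars); error bars are the SDs of the stages combined (root of the summed squares, 3 arrays each). Hatched bars are fitted changes from an ES stage at which no array detected the probe, and are not exact. Among bars without hatching, Car3 rose by 7.26 in knockdown and 2.67 in control cells, and En2 by 2.96 in control cells against 0.30.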

How the data were processed

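RNA of 6 conditions was measured on 18 arrays. The authors deposited the average bead signal intensity of each probe, neither background-corrected nor normalized, with a detection p-value; a second deposited table gave probe annotation, and its 72 per-sample columns, which the labels do not pair with samples, were not used. Groups were read from the labels. In R 4.3.3, neqc of limma 3.58.1 corrected the background, added an offset of 16, quantile-normalized and took log2. A single limma model of the 6 conditions was fitted to all 18 arrays, and p-values were adjusted by Benjamini-Hochberg over all tested probes (two-sided). A gene is represented by its brightest tested probe over the 6 arrays. Bounds use the lowest detected signal of each array. Named were Hprt1, the 12 largest rises and falls, members of 31 gene lists and the 5 largest differences from knockdown cells in each direction, of which a few are left out here. The rises and falls were ranked among called probes whose ES and SNM arrays did not overlap. The differences were ranked among called probes whose control and knockdown changes did not overlap over the arrays. Genes with clone names were left out of these rankings. Members and lists were chosen with earlier results of these data known. Many genes stand on more than 1 list. The scripts were tested on simulated data. Alternatives covered background, scaling, offset, filters, fold, test, probe choice, array number as a block and left-out arrays. Symbols are those of the array, and 3 arrays of 1 pool limit the precision.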

Additional observations from a re-analysis of the deposited data

Results flagged for a closer look

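The change from ES to SNM differed between control and HPRT-knockdown cells by a test of the difference itself (limma, control change minus knockdown change on the log2 scale), and 9 large differences are listed by value. Those of probes detected on no ES array of one or both kinds of cells are fitted against background, so they are not exact and have no firm order. The control change lay above the knockdown change by 2.66 for En2, 2.59 for Tex19.1, and, for probes undetected in both kinds of ES cells, 2.37 for Mmp3 and 2.27 for Tcfap2b, the last with an adjusted p of 4.72e-05. It lay below for the others, by -4.59 for Car3, which all of these arrays detected, by -5.98 for Ptgs1, undetected in knockdown ES cells, and by -6.02 for Nkx2-1, -5.31 for Shh and -4.56 for Angptl1, undetected in both kinds of ES cells. Tex19.1 fell in both kinds of cells. Each condition was 1 RNA pool, so what sets the pools apart was not tested.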

How the results depend on the processing

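As reported, 4916 probes were higher and 5251 lower, and the control change lay above that in knockdown cells for 2122 and below it for 2593. Without background correction, quantile normalization gave 3170, 3108, 893 and 1360, and scaling to the 75th percentile gave 2790 higher, 3633 lower, 1282 above and 1264 below. Without scaling between arrays 3111 were lower. An offset of 50 gave 1189 above and 1678 below, and detection on all 6 arrays 2984 higher and 4059 lower. A 2-fold minimum gave 3060, 2599, 416 and 1075, and no minimum 7156 higher, 8409 lower, 4516 above and 4097 below. Leaving out 1 array at a time gave 4890 to 4965 higher, 5228 to 5298 lower, 2077 to 2317 above and 2536 to 2621 below. With the array number as a block the counts were 4937, 5280, 2237 and 2627. Between the control ES and SNM arrays, those of equal number had correlations of -0.13, 0.203 and 0.0906 between their deviations from the condition means. Those of unequal number had -0.257 to 0.176. Other conditions were not checked, so whether the number marks a shared effect was not settled. The methods' t-test called 4860 higher and 5213 lower unadjusted, and 4670 and 4989 after Benjamini-Hochberg adjustment.

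Over 49 list medians and 16 settings, 246 values moved by more than the SD over arrays without turning, which was mostly towards 0. Medians were more than 1.5 times smaller for 30 lists with the 75th percentile, 26 with quantile normalization, 23 without the detection filter and 15 with an offset of 50. Without that filter Notch ligands went from 1.39 to 0.23 and neuronal RNA-binding genes from 1.20 to 0.34. Sign changes beyond that SD were found in 8 cases. With the 75th percentile these were hindbrain and Hox (-0.061) and reference genes (-0.249), without scaling FGF (0.37) and purine salvage (0.047), among probes detected on all 6 arrays hindbrain and Hox (-0.22) and cadherins (-0.26), and FGF with detection p under 0.01 (0.086), while leaving out SNM arrays moved FGF from -0.122 to 0.067. Of the values of named genes, 53 lost and 26 gained a call, each gene being given in the report. No named gene changed sign under the alternatives run where it was called. The causes were not tested. Dim probes, near background at 1 stage, have compressed changes, and the SDs hold only array error.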
